A study of Mus musculus with 9 samples.

Results

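DNA replication, mitosis and the cyclins that time them were followed through 60 listed mouse genes, each measured by 1 probe set on microarrays of 3 layers of the newborn growth plate. The list holds 20 genes of S phase, 25 of mitosis and 15 cyclins, cyclin-dependent kinases (CDKs) and Cdc25 phosphatases, out of 18193 genes named on the array. The genes were taken as listed, and the list was chosen with earlier results of these data known. The probe set of a gene was the one with the highest mean over all 9 arrays among those assigned to that gene alone. 59 of the 60 genes had such a probe set, and all 59 passed the filter on low signals, so none was lost to it. Ccnb1, encoding a mitotic cyclin, is not among the genes named here and was not analysed.

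The tissue was proximal tibial growth plate of wild-type Black Swiss mice on the day of birth (age 0 days). For each sample, 18 to 20 tibiae from the 9 to 10 pups of a single litter were pooled. Its round, flat or hypertrophic layer was dissected by hand from frozen sections, and no step separated chondrocytes from other cells. The 9 arrays are the round, flat and hypertrophic layers of 3 litters, so every comparison has n = 3 litters.

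Cells that divide license their origins with the MCM helicase, copy DNA with polymerases held by the PCNA clamp, and then separate the copies under the control of Cdk1, the Aurora and Polo kinases and the spindle checkpoint. D-type cyclins with Cdk4 or Cdk6, and E-type cyclins with Cdk2, drive the entry into S phase, while cyclins A and B act later. In the growth plate, the round cells near the joint are textbook slow dividers, the flat cells divide in columns, and hypertrophic chondrocytes have left the cell cycle. Whether transcripts of the division machinery differed between the layers was the question addressed.

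The layer labels were first set against markers. Prg4, the lubricin gene of the joint side, had signals of 14140, 13110 and 18770 in the round layer, 706.7, 191.2 and 255.6 in the flat layer and 261, 160.6 and 174.3 in the hypertrophic layer. Col10a1, which encodes collagen X of enlarged chondrocytes, gave 11230, 12910 and 11430 in the hypertrophic layer, against 470.2, 931.4 and 590.3 in the flat and 20.05, 156.2 and 240.2 in the round layer. Of 6 markers listed for the flat layer (cartilage matrix genes and Sox9), 5 fell in the flat layer against the round layer, so these markers do not set the flat layer above the round one. Median signals per array ran from 123.1 to 151.6, and precision is limited by there being 9 arrays. The round array of litter 1 stood apart in its 3'/5' control ratios. For actin the ratio was 4.246, where the other 8 arrays had 1.45 to 2.057, and for Gapdh it was 2.594, where they had 0.9223 to 1.279. Results for members that rest on it are given with and without it. For genes outside the list, values without it are not given.

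Promoters offer a view of the list that does not use the arrays. Windows of 300 bases, from 250 before to 50 after the annotated start, were found in RefSeq (build GRCm38.p6) for 48 of the 60 genes. Both strands were searched for TTTGAA, the core of the cell cycle homology region bound by the DREAM and MuvB complexes, for CCAAT, the box bound by NF-Y, and for TTTNNCGC, an E2F-like core. TTTGAA stood in 15 of 21 mitosis genes (71.4%), 1 of 17 S phase genes (5.88%) and 2 of 10 cyclin and CDK genes (20%), where 20.2% of all genes in the table held it. TTTNNCGC stood in 9 of 17 S phase genes (52.9%) and 4 of 10 cyclin and CDK genes (40%), in 0 of 21 mitosis genes and in 5.93% of all genes. CCAAT stood in 81% of the mitosis genes, 64.7% of the S phase genes, 70% of the cyclin and CDK genes and 41.1% of all genes. TTTNNCGC on opposite strands can overlap itself, and overlapping matches were counted once per gene. These are matches of letters and do not show binding.

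Of the 14 members that differed between any layers in the tests below, 11 had a window, and 5 of these held TTTGAA, 8 CCAAT and 0 TTTNNCGC. The 100 bases before the start are shown for 7 of them in which a searched motif falls, and for Mcm6 and Cdk1, which were added after the search because they hold the E2F-like core. None of the motifs falls in those bases of the other 4, Mad2l1, Ccne1, Birc5 and Ccnd3. Sequences run 5′ to 3′ on the gene's strand. Capitals mark the motifs, and CCAAT on the opposite strand reads ATTGG.
Mcm6, S phase, chr1:128359706-128359805, minus strand: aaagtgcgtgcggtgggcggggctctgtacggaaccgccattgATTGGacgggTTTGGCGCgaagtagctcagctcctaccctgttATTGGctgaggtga
Mcm2, S phase, chr6:88898781-88898880, minus strand: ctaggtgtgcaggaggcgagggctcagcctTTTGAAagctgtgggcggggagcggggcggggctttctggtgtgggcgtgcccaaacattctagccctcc
Rrm1, S phase, chr7:102441595-102441694, plus strand: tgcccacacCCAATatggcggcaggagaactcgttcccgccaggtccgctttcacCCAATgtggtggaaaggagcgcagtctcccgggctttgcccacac
Rrm2, S phase, chr12:24708154-24708253, plus strand: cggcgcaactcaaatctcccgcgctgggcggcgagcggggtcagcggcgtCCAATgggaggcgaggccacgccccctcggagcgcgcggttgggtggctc
Plk1, mitosis, chr7:122159335-122159434, plus strand: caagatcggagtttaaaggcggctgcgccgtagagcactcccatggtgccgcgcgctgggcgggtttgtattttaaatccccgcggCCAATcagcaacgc
Aurka, mitosis, chr2:172370571-172370670, minus strand: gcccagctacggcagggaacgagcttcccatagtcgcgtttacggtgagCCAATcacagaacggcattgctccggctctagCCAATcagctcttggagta
Cdca8, mitosis, chr4:124936918-124937017, minus strand: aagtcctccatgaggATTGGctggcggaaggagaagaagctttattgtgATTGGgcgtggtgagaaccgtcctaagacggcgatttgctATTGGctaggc
Kif23, mitosis, chr9:61946800-61946899, minus strand: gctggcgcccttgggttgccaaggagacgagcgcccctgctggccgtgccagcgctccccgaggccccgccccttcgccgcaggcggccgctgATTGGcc
Cdk1, cyclins and CDKs, chr10:69352913-69353012, minus strand: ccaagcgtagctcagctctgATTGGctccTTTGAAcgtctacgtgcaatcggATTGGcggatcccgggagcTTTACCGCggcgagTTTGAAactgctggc

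Signals of most members differed little between the layers. By limma's F test for any difference between layers, with litter as a block and Benjamini-Hochberg adjustment over 11313 tested genes (threshold 0.05), 6 of 59 members passed (10.2%), where 28.4% of all tested genes did. These were the cyclins Ccnd1, Ccnd2 and Ccnd3, the replication genes Pole and Mcm2 and the chromosomal passenger gene Cdca8. The spread between layer means had a median of 0.29 on the log2(signal + 26) scale over the members, against 0.41 over all tested genes. The spread between litter means was of the same order in both, 0.36 for the members and 0.33 for all tested genes. No member reached a 2-fold difference in any comparison on the probe set used. Of all tested genes, 6.82% (flat against round), 4.79% (hypertrophic against flat) and 9.16% (hypertrophic against round) did. Other probe sets above the filter did so between the hypertrophic and round layers for Rrm1 (log2 1.03), Rrm2 (1.15) and Cenpf (-1.28). The 95% confidence intervals bear on how large a difference could have been missed. They lay wholly inside 2-fold for 56 of 59 members between the flat and round layers, for 58 between the hypertrophic and flat layers, and for 56 between the hypertrophic and round layers. The members whose intervals reached beyond were Ccnd1, Ccne1 and the thymidylate synthase gene Tyms in the first comparison, Pole in the second, and Pole, Tyms and Ccne1 in the third. In bulk tissue, fewer dividing cells and less of a transcript per cell cannot be told apart.

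**Figure D1:**
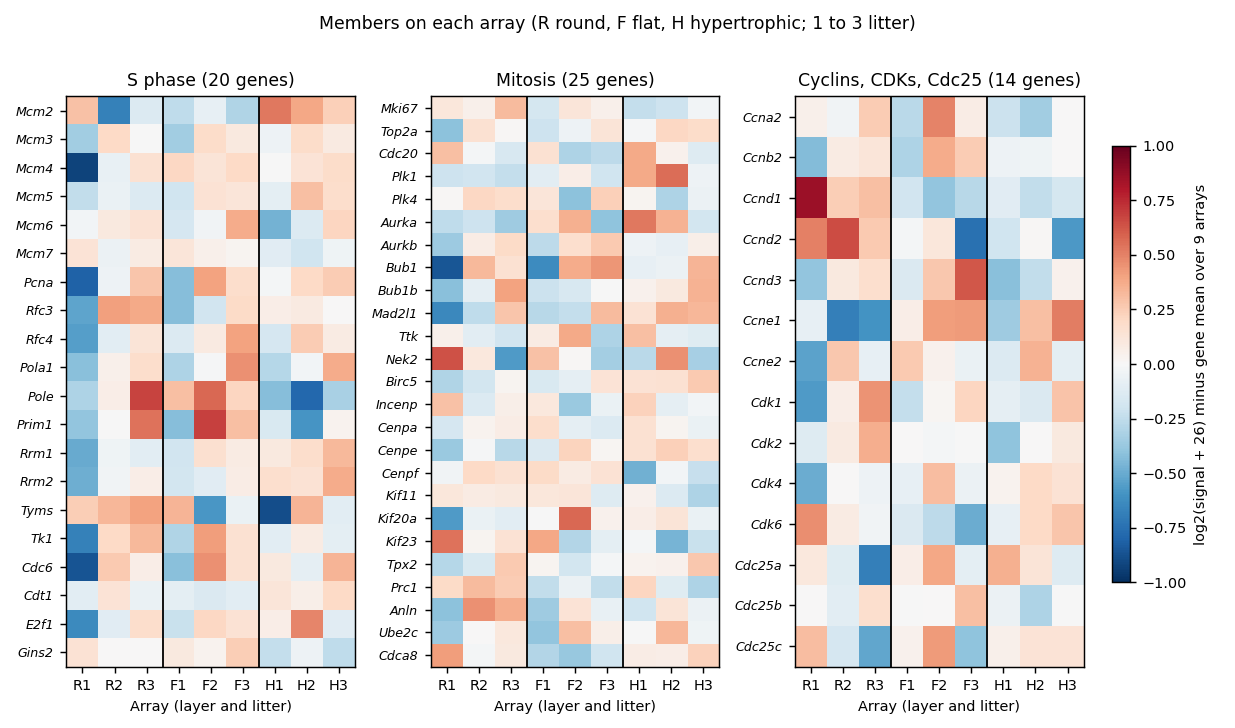
Each cell shows 1 member on 1 array as log2(signal + 26) minus the gene's mean over the 9 arrays (red higher, blue lower), with round (R), flat (F) and hypertrophic (H) arrays of litters 1 to 3 in columns. Ccnd1 and Ccnd2 are red on the 3 round arrays, and many S phase rows are blue on R1, the round array of litter 1.

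Mki67, the Ki-67 antigen gene used as a mark of dividing cells, had signals of 5193, 4966 and 5964 in the round layer, 4228, 5201 and 4960 in the flat layer and 4053, 4137 and 4696 in the hypertrophic layer, in litters 1 to 3. The hypertrophic arrays lay below all round arrays, and the flat arrays overlapped both. The largest of its differences, hypertrophic minus round, was -0.32 on the log2 scale (95% interval -0.58 to -0.06, adjusted p = 0.0688 by limma), which passed the threshold with quantile normalised arrays (adjusted p = 0.0456). Cdk1, the mitotic kinase, had signals of 1975, 3077 and 4008 in the round layer, 2485, 2982 and 3418 in the flat layer and 2751, 2651 and 3586 in the hypertrophic layer. Its layers overlapped, with litter 3 highest in each layer. Its hypertrophic minus round difference was 0.03 (95% interval -0.29 to 0.35). Pcna, the sliding clamp, had signals of 3927, 6675 and 8360 in the round, 5123, 9141 and 7795 in the flat and 6825, 7948 and 8219 in the hypertrophic layer, with litter 1 lowest in each.

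The flat layer was compared with the round layer to ask whether the columns of flat cells carry more division transcripts. Between them 4 of 59 members passed the test (6.78%), against 17.0% of all tested genes. Ccne1 was higher in the flat layer (1 member, where 8.39% of all tested genes were higher), and Ccnd1, Ccnd2 and Cdca8 were lower (3 members, where 8.64% were lower). 7 members had flat and round arrays that did not overlap (11.9%), against 25.3% of all tested genes, 2 with the flat layer higher (12.0% of all) and 5 with it lower (13.3%). At an unadjusted p below 0.05 there were 9 members, where 30.1% of all genes passed. The members' share was below the background by each of these counts.

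Ccnd1, the D-type cyclin induced by growth factors, had signals of 3816, 3316 and 3597 in the flat layer, against 7918, 5179 and 5391 in the round layer. Every flat array lay below every round array. The flat layer was 1.69-fold lower (log2 -0.76 ± 0.13, SE, adjusted p = 0.00168). Ccnd2, a second D-type cyclin, had signals of 8471, 9299 and 5102 in the flat layer, against 12190, 13510 and 10270 in the round layer. These also did not overlap, and the flat layer was 1.61-fold lower (log2 -0.69 ± 0.13, adjusted p = 0.00224). Leaving out any of the 9 arrays kept both calls, with adjusted p up to 0.0186 for Ccnd1 and 0.018 for Ccnd2. The call of Ccnd2 was lost when the skeletal muscle score was a covariate (log2 -0.56, adjusted p = 0.313), and Ccnd1 passed there (log2 -1.29, adjusted p = 0.0157). That score, a mean log2 deviation over 18 markers, was 0.427, 0.397 and 1.47 on flat arrays and -0.399, -1.04 and -0.191 on round arrays. Layer and score can therefore not be fully told apart in the flat against round comparison, for any gene. All 7 probe sets of Ccnd2 and all 3 of Ccnd1 were lower in the flat layer, by 0.48 to 0.90 and by 0.29 to 0.76 on the log2 scale.

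**Figure D2:**
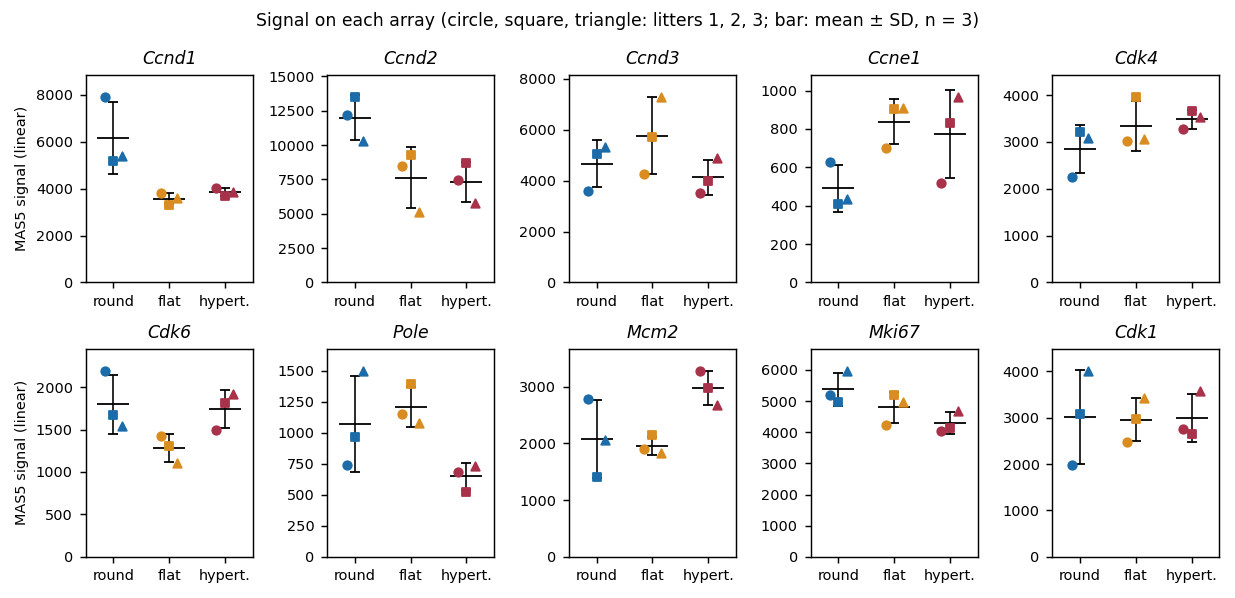
Deposited signal on a linear axis for 10 members, with 1 panel per gene, 1 point per array (circle, square and triangle for litters 1, 2 and 3) and bars for the mean ± SD of 3 arrays. The round arrays of Ccnd1 and Ccnd2 stand above those of the other layers, Pole is low in the hypertrophic layer, and the layers of Cdk1 overlap.

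Ccne1, the cyclin that activates Cdk2 for the start of S phase, went the other way. Its signals were 701.2, 901.9 and 906.6 in the flat layer, against 630.1, 406.3 and 433.5 in the round layer. The lowest flat array was above the highest round array, and the flat layer was 1.69-fold higher (log2 0.76 ± 0.23, adjusted p = 0.0436). The second probe set of the gene was higher by 0.67. The call was lost when any of 7 arrays was left out, among them all 3 flat arrays and the round arrays of litters 2 and 3 (adjusted p up to 0.21), and the difference turned to -0.61 (adjusted p = 0.416) with the muscle score as a covariate.

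Cdca8, borealin of the chromosomal passenger complex, had signals of 1133, 1063 and 1210 in the flat layer, against 1873, 1372 and 1489 in the round layer. The arrays did not overlap, and the flat layer was lower by -0.46 ± 0.14 on the log2 scale (adjusted p = 0.0436). That call was lost when any 1 of the 9 arrays was left out (adjusted p 0.0518 to 0.174), and the gene's other probe sets differed by -0.20 and -0.02. Cdk6, the kinase partner of D-type cyclins, had signals of 1430, 1311 and 1111 in the flat layer, against 2190, 1670 and 1537 in the round layer. It did not overlap either, at a log2 difference of -0.47 ± 0.17 (adjusted p = 0.0735). A second Cdk6 probe set of similar brightness overlapped between these layers and was at -0.01. Cdk4, the other partner, had signals of 3021, 3963 and 3063 in the flat layer, against 2251, 3210 and 3084 in the round layer, which overlapped (0.24 ± 0.13, adjusted p = 0.243). Its other probe sets were higher by 0.32 and 0.51. The latter has the largest interquartile range, and Cdk4 passed when read from it (adjusted p = 0.0415).

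Of the 20 S phase members 0 passed between the flat and round layers by limma, with 1 at an unadjusted p below 0.05 (Mcm4, a helicase subunit, log2 0.46, adjusted p = 0.127). Their median difference was 0.12, against -0.01 over all tested genes, and 15 of 20 were positive. Without the round array of litter 1 the S phase median was 0.06. The 25 mitosis members had a median of 0.00, which was -0.05 with arrays centred on their medians and without the round array of litter 1, and 13 of them were positive. The 14 cyclin and CDK members had a median of 0.11. With median-centred arrays the S phase and cyclin medians were 0.06 and 0.05, against -0.07 over all tested genes. Of these, 9 act in G1 and at the start of S phase (D- and E-type cyclins, Cdk2, Cdk4, Cdk6 and Cdc25a), and they held the 3 calls of the group, while 0 of the 5 later ones (Ccna2, Ccnb2, Cdk1, Cdc25b and Cdc25c) passed or had an unadjusted p below 0.05. The count of members past the threshold was 2 when any flat array, the round arrays of litters 2 or 3, or the hypertrophic arrays of litters 2 or 3 were left out singly, and 3 or 4 without the other 2 arrays.

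**Figure D3:**
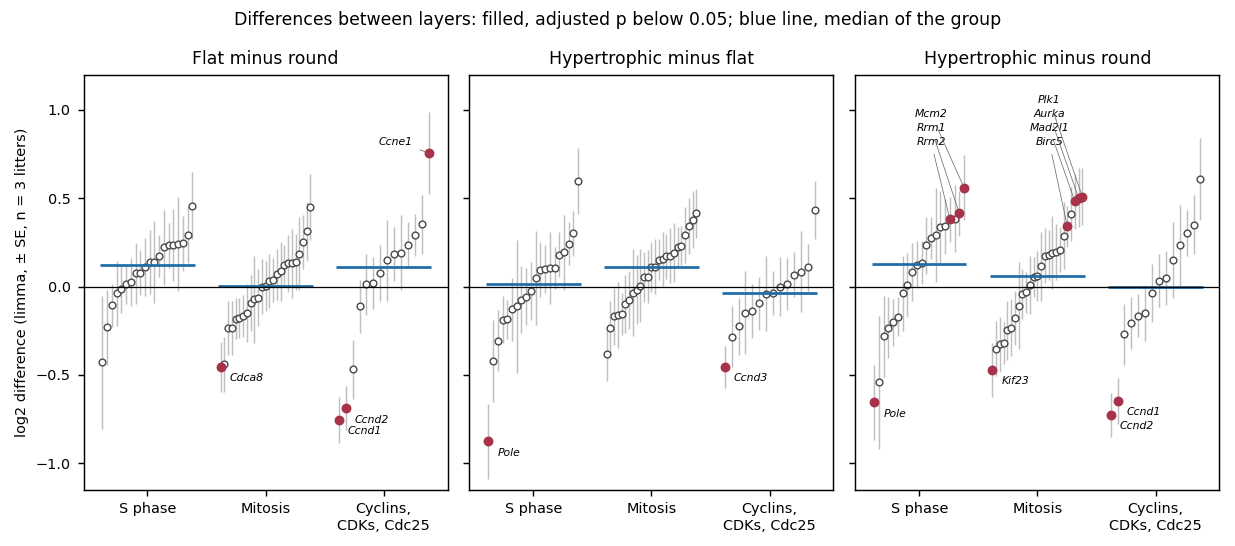
Each point is 1 member's log2 difference between 2 layers from limma with its SE, sorted within S phase, mitosis and cyclin groups, filled and named where adjusted p was below 0.05, with the group median as a blue line. All points lie between -0.88 and 0.76, and the named members of the left panel are Ccne1 above 0 and Ccnd1, Ccnd2 and Cdca8 below it.

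The hypertrophic layer was compared with the flat layer, where cells are said to stop dividing as they enlarge. 2 of 59 members passed (3.39%), against 11.3% of all tested genes. Both were lower in the hypertrophic layer (5.22% of all tested genes) and 0 were higher by limma (6.12%). 13 members had layers that did not overlap (22%, against 22.7% of all tested genes), 8 with the hypertrophic layer higher (13.3% of all) and 5 with it lower (9.43%). At an unadjusted p below 0.05 there were 9 members, against 24.6% of all genes.

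Pole, the catalytic subunit of the leading-strand polymerase, had signals of 683.4, 526.3 and 736 in the hypertrophic layer, against 1150, 1392 and 1082 in the flat layer. All hypertrophic arrays were below all flat arrays, and the layer was 1.84-fold lower (log2 -0.88 ± 0.21, adjusted p = 0.0191). Ccnd3, the remaining D-type cyclin, had signals of 3529, 3996 and 4872 in the hypertrophic layer, against 4273, 5718 and 7290 in the flat layer. The 2 layers overlapped across litters, but the hypertrophic array was the lower in each litter, and the layer was 1.37-fold lower (log2 -0.46 ± 0.12, adjusted p = 0.0289). The call of Pole was lost without the flat array of litter 1 or 2 or the hypertrophic array of litter 2 or 3 (adjusted p up to 0.13). That of Ccnd3 was lost without any 1 of the 3 flat or 3 hypertrophic arrays (adjusted p up to 0.177), and a dimmer probe set of the gene was higher in the hypertrophic layer, by 0.56, while another, below the filter, was lower.

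Mcm2, a subunit of the replicative helicase, had signals of 3277, 2976 and 2680 in the hypertrophic layer, against 1894, 2141 and 1837 in the flat layer. The arrays did not overlap, yet the difference missed the threshold (log2 0.60 ± 0.18, adjusted p = 0.0575), and its second probe set was at -0.15. Cdca8 (0.41, adjusted p = 0.0826) and Cdk6 (0.43, adjusted p = 0.123) were higher on all 3 hypertrophic arrays than on any flat array, without passing. Their other probe sets above the filter were at 0.15 and -0.04 for Cdca8 and at 0.25 for Cdk6, with overlap. The S phase, mitosis and cyclin groups had medians of 0.01, 0.11 and -0.04, against 0.00 over all tested genes. With arrays centred on their medians these were 0.08, 0.18 and 0.03, against 0.07 over all tested genes. Leaving out the hypertrophic array of litter 2 or 3 or the flat array of litter 1 gave 0 members past the threshold by limma, leaving out the flat array of litter 2 or 3 gave 1, and leaving out the round array of litter 1 or 2 gave 4 and 3. With median-centred arrays the calls over all genes were 838 higher and 448 lower, against 692 and 591 as deposited. The members then had 1 higher call, Mcm2 (0.67, adjusted p = 0.0267), and 1 lower, Pole, while that of Ccnd3 was lost.

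The hypertrophic and round layers lie farthest apart, and 11 of 59 members passed between them (18.6%), against 25.1% of all tested genes. 7 were higher in the hypertrophic layer (12.4% of all tested genes were higher) and 4 were lower (12.7%). 14 members did not overlap (23.7%, against 36.5% of all tested genes), 7 higher (18.3% of all) and 7 lower (18.2%). At an unadjusted p below 0.05 there were 17 members, against 36.6% of all genes. The higher members were Mcm2, Rrm1 and Rrm2 of S phase and Plk1, Aurka, Mad2l1 and Birc5 of mitosis. Lower were Pole, Kif23, Ccnd1 and Ccnd2.

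Both ribonucleotide reductase subunits, which make deoxynucleotides, were among the higher members. Rrm1 had signals of 2006, 2119 and 2345 in the hypertrophic layer, against 1314, 1820 and 1742 in the round layer (log2 0.41 ± 0.13, adjusted p = 0.0321). Rrm2 had signals of 3340, 3302 and 3852 in the hypertrophic layer, against 2116, 2898 and 3120 in the round layer (0.38 ± 0.13, adjusted p = 0.0463). Neither overlapped. Over litters 2 and 3 alone, which leave out the round array with high 3'/5' ratios, the mean within-litter difference was 0.32 for Rrm1 and 0.24 for Rrm2. The second probe set of Rrm1 was higher by 1.03 over 3 litters and by 0.48 over litters 2 and 3, and a further one, below the filter, by 0.43 and 0.90. The other probe sets of Rrm2 were higher by 0.47 and 1.15 over 3 litters and by 0.36 and 0.45 over litters 2 and 3. Mcm2 had the signals given above in the hypertrophic layer, against 2785, 1407 and 2057 in the round layer, with some overlap (0.56 ± 0.18, adjusted p = 0.0432). The second probe set of Mcm2 was higher by 0.21, also with overlap. Of the MCM partners of Mcm2, Mcm3, Mcm4 and Mcm5 had positive differences and Mcm6 and Mcm7 negative ones, from -0.20 to 0.38. None of these 5 passed.

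The higher mitotic members act at the spindle and the centromere. Plk1, the Polo kinase, had signals of 819.6, 932.8 and 603.7 in the hypertrophic layer, against 537, 543.3 and 526.4 in the round layer (0.51 ± 0.16, adjusted p = 0.037). Aurka, the Aurora kinase of spindle poles, had signals of 1090, 958.6 and 654.6 in the hypertrophic layer, against 622.5, 644.4 and 578.8 in the round layer (0.50 ± 0.17, adjusted p = 0.0444). Neither overlapped, and litter 3 had the smallest difference in both. Mad2l1, a checkpoint protein, had signals of 1677, 1943 and 1912 in the hypertrophic layer, against 962.9, 1266 and 1838 in the round layer, which overlapped (0.48 ± 0.16, adjusted p = 0.0406). Birc5, survivin of the passenger complex, had signals of 3030, 3047 and 3277 in the hypertrophic layer, against 2214, 2398 and 2786 in the round layer (0.34 ± 0.12, adjusted p = 0.0499). Kif23, a kinesin of the midbody, was lower at 569.7, 410.7 and 492.4 in the hypertrophic layer, against 851.9, 588.6 and 640.5 in the round layer (-0.47 ± 0.15, adjusted p = 0.0415). The mean over its probe sets gave 0.06 in place of that difference. Its other probe sets were at -0.18 and, for the dimmest, which was below the filter, at 0.83.

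Without the round array of litter 1, 0 of the 25 mitosis members passed between the hypertrophic and round layers by limma, and of the 20 S phase members 2 did, Mcm2 and Pole. Ccne1, at 0.61 and an adjusted p of 0.0769 with all arrays, passed without it (0.98, adjusted p = 0.00203). The calls of Plk1, Aurka, Mad2l1, Birc5, Kif23, Rrm1 and Rrm2 were lost without that array, and likewise without the round array of litter 2, the flat array of litter 1 or the hypertrophic array of litter 1 or 2 (adjusted p up to 0.212 over the arrays left out). Their differences kept their direction when any array was left out, at 0.42 to 0.65 for Plk1, 0.39 to 0.68 for Aurka, 0.35 to 0.67 for Mad2l1, 0.30 to 0.39 for Birc5, -0.53 to -0.41 for Kif23, 0.34 to 0.50 for Rrm1 and 0.26 to 0.47 for Rrm2. The calls of Mcm2 and Pole fell without 5 arrays each, among them the round arrays of litters 2 and 3 (adjusted p up to 0.278 and 0.221). The count of members past the threshold was 2 without the round or hypertrophic array of litter 2, 3 without the flat array of litter 1, 4 without the hypertrophic array of litter 1 or 3, 5 without the round array of litter 1, 6 without that of litter 3, and 9 or 10 without the other flat arrays. Counts with an array left out, in each comparison, are given without the share over all tested genes. Changes in them are therefore not shown to be particular to the members.

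Ccnd1 had signals of 4023, 3671 and 3863 in the hypertrophic layer, below all 3 round arrays given above, and was 1.57-fold lower (log2 -0.65 ± 0.13, adjusted p = 0.00324). Ccnd2 had signals of 7475, 8658 and 5750 and was 1.65-fold lower (-0.73 ± 0.13, adjusted p = 0.00106). Both calls were kept when any array was left out. For Ccnd1 the call did depend on the probe set, since the other 2 were lower by only 0.22 and 0.10 and their mean with the first missed the threshold (-0.32, adjusted p = 0.0926). Between the hypertrophic and flat layers neither cyclin passed, at 0.11 (95% interval -0.18 to 0.39) for Ccnd1 and -0.04 (-0.31 to 0.24) for Ccnd2. The other probe sets of Ccnd1 were higher in the hypertrophic layer by 0.45, outside that interval, and by 0.19. The former did not overlap, with 3401, 4081 and 3980 against 2757, 2834 and 2730 in the flat layer. Pole was lower than in the round layer as well, where its signals were 743, 969.5 and 1499, by -0.66 ± 0.21 (adjusted p = 0.0406). Cdk4 had signals of 3267, 3665 and 3524 in the hypertrophic layer, above all round arrays, without passing (0.30 ± 0.13, adjusted p = 0.108). It passed with the probe set of the largest interquartile range (0.68, adjusted p = 0.00673) and with the mean of its probe sets (0.45, adjusted p = 0.0212). With the muscle score as a covariate Cdk4 passed too (0.405, adjusted p = 0.0318). The 3 comparisons of layers share arrays in pairs, so a gene's values in them are not independent.

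The remaining members with values by array did not pass in any comparison. Mcm6, a helicase subunit, had 2313, 2535 and 2619 in the round, 2103, 2309 and 3061 in the flat and 1692, 2148 and 2751 in the hypertrophic layer. Cdt1, which loads the helicase, had 2971, 3519 and 3043 in the round, 2986, 2884 and 2957 in the flat and 3466, 3320 and 3674 in the hypertrophic layer, the last above all flat arrays. Top2a, the topoisomerase that untangles chromosomes, had 2056, 3053 and 2756 in the round, 2371, 2641 and 2991 in the flat and 2715, 3168 and 3113 in the hypertrophic layer. On the probe sets used, these 3 genes overlapped between round and flat arrays. Cdc20, which switches on the ubiquitin ligase of anaphase, had 5067, 4056 and 3665 in the round, 4573, 3317 and 3427 in the flat and 5347, 4224 and 3743 in the hypertrophic layer, and litter 1 was highest in each. Ccna2, cyclin A, had 3062, 2884 and 3531 in the round, 2449, 4190 and 3113 in the flat and 2556, 2322 and 2974 in the hypertrophic layer. For both genes the layers overlapped in every pair on these probe sets. A dimmer Ccna2 probe set had hypertrophic signals of 1747, 1792 and 1983, above round signals of 1056, 1641 and 1740. Its hypertrophic minus round difference was 0.34, where that of the first was -0.27. A dimmer Cdc20 probe set had hypertrophic signals of 2116, 2072 and 1719, above flat signals of 1621, 1671 and 1480.

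In the S phase group the spread between litter means had a median of 0.43 on the log2 scale, against 0.30 between layer means. Litter 1 had the lowest litter mean for 17 of 20 S phase members (85%), 12 of 25 mitosis members (48%) and 8 of 14 cyclin members (57.1%), against 35.8% of all tested genes. The round array of litter 1, the one with the high 3'/5' ratios, was the lowest of all 9 for 26 of 59 members (44.1%), 11 of them of S phase and 11 of mitosis, where 17.9% of all tested genes had it lowest. The mean deviation of the S phase members from their gene means was -0.35, 0.03 and 0.16 on the log2 scale in litters 1 to 3 of the round layer, -0.15, 0.12 and 0.15 in the flat and -0.09, 0.05 and 0.10 in the hypertrophic layer. Litter 1 was thus lowest in each layer, and the layers overlapped. The mitosis members deviated by -0.12, 0.02 and 0.05 in the round, by -0.07, 0.01 and -0.03 in the flat and by 0.06, 0.06 and 0.00 in the hypertrophic layer. The part of the 3'/5' ratios in these values was not tested. The layer in which a member was highest was the round for 16 of the 59 (27.1%), the flat for 19 (32.2%) and the hypertrophic layer for 24 (40.7%), against 38.4%, 27.1% and 34.6% of all tested genes. Over litters 2 and 3 alone it was the round for 15 (25.4%), the flat for 23 (39%) and the hypertrophic layer for 21 (35.6%). The shares of all tested genes were then 38.5%, 28.3% and 33.2%.

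**Figure D4:**
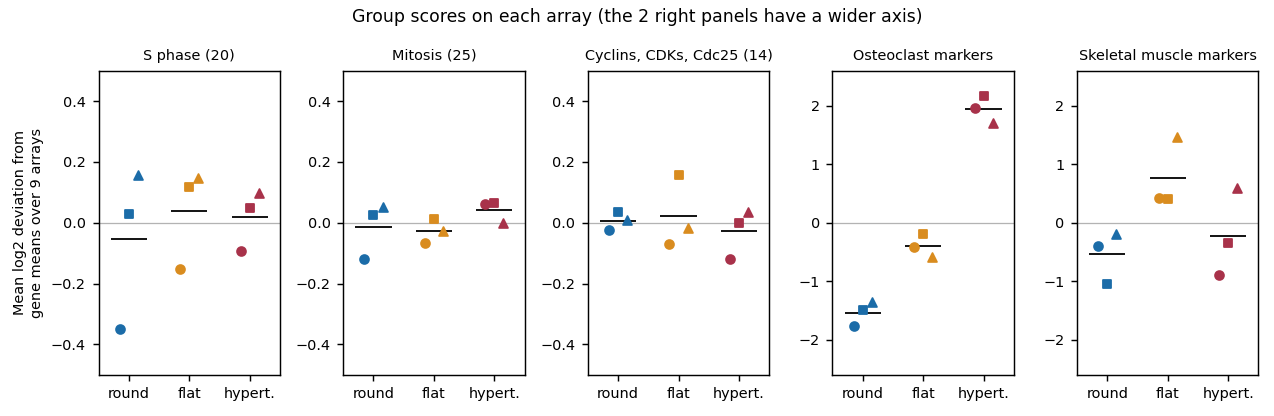
Mean log2 deviation from each gene's mean over 9 arrays for the S phase, mitosis and cyclin members and, on a wider axis, for osteoclast and skeletal muscle markers, with 1 point per array (circle, square and triangle for litters 1, 2 and 3) and a line at the layer mean. The 3 member groups stay between -0.35 and 0.16 and overlap between layers, while the osteoclast markers separate the layers without overlap.

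Markers of other cell types moved with the layers too. All 7 tested osteoclast markers were higher in the hypertrophic than in the flat layer and than in the round layer, with summed signals of 71247 to 94202 over the 8 listed markers in the hypertrophic layer. In the flat layer these sums were 12576 to 17427, and in the round layer 4573 to 5960. Of 18 skeletal muscle markers, 17 rose in the flat layer against the round layer and 16 fell in the hypertrophic against the flat layer, with summed signals of 363655 to 582614 in the flat layer, 152111 to 250479 in the round and 153988 to 359553 in the hypertrophic layer. All 4 tested neutrophil and myeloid precursor markers were higher in the hypertrophic than in the round layer, with summed signals of 6951 to 16072 against 2224 to 3021. Of 8 macrophage markers 3 were higher and 1 lower in the hypertrophic layer against the round layer, and the sums were 19933 to 25048 against 11815 to 12713. Osteoblast markers were higher in the hypertrophic layer against the round layer for 4 of 5 tested, with sums of 104999 to 122414 against 63709 to 89245. Of 8 perichondrium, fibroblast and tendon markers, 6 fell and 1 rose in the hypertrophic layer against the round layer, and 3 fell in the flat against the round layer. Summed signals of this list were 167246 to 185423 on round arrays, 133860 to 168457 on flat arrays and 106225 to 120268 on hypertrophic arrays. Ccnd1 and Ccnd2 were also lower in both of the other layers than in the round one. In each of these 2 comparisons, so were 5 of 6 markers listed for the round layer and 5 of 6 listed for the flat layer. Of 8 endothelial markers 2 rose and 1 fell in the hypertrophic layer against the round layer. No marker of these lists was at 0 on any array. Which cells the division transcripts of each layer came from was not tested.

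Other genes of the same machinery were listed from general knowledge, and the shares of all tested genes given above for each comparison are their background. Of 41 tested replication genes outside the 60, 1 rose in the flat against the round layer (Orc3, an origin recognition subunit, 0.60 ± 0.15), 0 passed between the hypertrophic and flat layers by limma (4 at an unadjusted p below 0.05), and 4 passed between the hypertrophic and round layers (9.76%, against 25.1% of all tested genes). There Gmnn, geminin, the inhibitor of Cdt1 (0.70 ± 0.19), Uhrf1, which guides maintenance methylation (0.57 ± 0.16), and Dbf4, the activator of the Cdc7 kinase (0.45 ± 0.15), rose, and Pold1, the catalytic subunit of the lagging-strand polymerase, fell (-0.92 ± 0.19). Gmnn had signals of 935.9, 1206 and 1038 in the hypertrophic layer, against 398.7, 669.9 and 965.5 in the round layer, which overlapped. Pold1 had signals of 642.9, 781.7 and 756.6 in the hypertrophic layer, against 1418, 1479 and 1302 in the round layer, which did not overlap. Other polymerase subunit genes did not pass there, with Pole2 at 0.47, Pold3 at 0.18, Pola1 at 0.08, Pold2 at 0.00 and Pola2 at -0.30. Of 60 further mitosis genes, Dlgap5, a spindle protein, rose in the flat against the round layer (1.03 ± 0.33), Zwint, a kinetochore protein, in the hypertrophic against the round layer (0.47 ± 0.13), and 0 between the hypertrophic and flat layers by limma (2 at an unadjusted p below 0.05). Dlgap5 had signals of 249.5, 387 and 278.8 in the flat layer, against 41.84, 208.9 and 230 in the round layer. For both Dlgap5 and Gmnn, the lowest round signal and the largest of these differences were in litter 1, whose round array had the high 3'/5' ratios. Of 14 further cyclins and CDK regulators, Ccng1, a cyclin induced by p53 (0.63 ± 0.16), and Skp2, a ubiquitin ligase subunit that targets p27 (0.56 ± 0.15), rose and the Cdk1-inhibiting kinase Wee1 fell (-0.57 ± 0.17) in the flat against the round layer (3 genes, 21.4%, against 17.0% of all tested genes). Between the hypertrophic and flat layers 0 of the 14 passed by limma, with 1 at an unadjusted p below 0.05. In the hypertrophic against the round layer Cks1b, a CDK-binding subunit, rose (0.38 ± 0.11) and Wee1 fell (-0.61 ± 0.17).

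Of 10 listed genes that hold the cycle back, the CDK inhibitors and pocket proteins, 8 were tested, and 3 of these passed the F test (37.5%, against 28.4% of all tested genes). Cdkn1a, the inhibitor p21, had signals of 4822, 3828 and 4217 in the round, 7956, 8394 and 7664 in the flat and 11720, 9983 and 11640 in the hypertrophic layer. It was higher in each layer than in the one before, with no overlap (flat minus round 0.90 ± 0.12, hypertrophic minus flat 0.47 ± 0.12, adjusted p = 0.000291 and 0.0257). Cdkn1c, the inhibitor p57, had signals of 14090, 18010 and 18900 in the hypertrophic layer, against 24620, 27860 and 32790 in the flat and 25750, 22710 and 23410 in the round layer. It fell in the hypertrophic layer against both (-0.74 ± 0.13 and -0.50 ± 0.13, adjusted p = 0.00405 and 0.0162). Rb1, the retinoblastoma pocket protein, had signals of 1310, 1356 and 2555 in the flat layer, against 931.8, 736.6 and 848.1 in the round layer (0.97 ± 0.19, adjusted p = 0.00343), and was also higher in the hypertrophic than in the round layer (0.56 ± 0.19, adjusted p = 0.0463).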

How the data were processed

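Per the submitters' processing notes, arrays were processed by the authors with Affymetrix Expression Console and MAS5, whose versions are not given here. The deposited values are MAS5 signal intensities of 45101 probe sets on 9 arrays, scaled by the authors to the same trimmed mean (500 with 2% of values left out at either end). The values were transformed as log2(signal + 26), 26 being the rounded 20th percentile of all values, so fold changes of dim genes are understated. Each of 18193 genes was read from the brightest probe set assigned to it alone. The 11313 genes whose mean exceeded that of the median probe set, controls left out, entered a fit of layer and litter in limma 3.58.1 (R 4.3.3) with a mean-variance trend. All adjusted p-values and all errors of log2 differences are from this fit. The replicate number pairs the samples, because the labels give 3 litters as the triplicates. Deviations of same-litter arrays from their layer means correlated in all 9 pairs (r 0.167 to 0.517), against -0.434 to 0.0815 in the 18 other pairs. Litters are separate groups of animals. With litter as a fixed block, the spread between litter means is taken out. The p-values rest on how the differences between layers varied from litter to litter (4 residual degrees of freedom). limma moderates this spread with a prior from all tested genes (8.15 degrees of freedom). Of the 59 members, 45 had several single-gene probe sets. Among those named, Ccne1, Rrm2, Cdc20, Cdk4, Mcm5, Cdc25c and Pold1 were read by probe sets whose suffix (x) marks possible cross-hybridisation, and Mcm2, Mcm3, Mcm7 and Cdca8 by ones (s) that match several transcripts.

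The members, gene lists and tests were chosen with earlier results of these data known. Values by array are given for every member past the threshold and for a list of reference members. Of the other lists, up to 5 genes past the threshold per comparison are named. Promoter windows and their coordinates come from a RefSeq table, and 12 of the 60 members had no entry in it. Detection calls were not used here. Values over litters 2 and 3 alone were added after seeing the data.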

Additional observations from a re-analysis of the deposited data

How the results depend on the processing

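Over 22 alternative settings, the falls of Ccnd1 in the flat layer and of Ccnd2 in the hypertrophic layer, both against the round layer, passed the threshold in all 22. Of 371 values for the 17 comparisons of members past the threshold, 212 kept direction and call, 156 kept direction and lost the call, and 3 reversed: Ccne1 in flat against round with the skeletal muscle score as a covariate (-0.61), Ccnd3 in hypertrophic against flat with the probe set of the largest interquartile range (0.56), and Kif23 in hypertrophic against round with the mean of all probe sets (0.0583). For Kif23 that mean includes a probe set below the filter (0.83), while the others were at -0.47 and -0.18. The cause of the reversals was not tested. Members past the threshold numbered 4 in flat against round, 2 in hypertrophic against flat, 11 in hypertrophic against round and 6 by the F test. Without the replicate block for litter these counts were 1, 0, 2 and 1. Without the mean-variance trend they were 2, 0, 4 and 2, and with the muscle score they were 1, 1, 11 and 12. With no filter on low values, which tests more genes, they were 2, 2, 4 and 4. With litter as a random replicate block, hypertrophic against flat gave 1 and hypertrophic against round 6. The mean of all probe sets gave 1 and 6 there, and the probe set of the largest interquartile range gave 1 in hypertrophic against flat. Leaving out litter 1's round array together with litter 3's flat array, hypertrophic against round gave 6. Leaving out each array in turn gave 2 to 4, 0 to 4, 2 to 10 and 2 to 8. Shares over all tested genes are not given here for the counts under alternative settings. Changes in these counts are therefore not shown to be particular to the members. Pseudocounts, a stricter filter, median centring and quantile normalisation kept each count within 1.5 times. Among the 55 comparisons of reference members that missed the threshold, 17 of 1198 values passed it. With 3 litters, intervals of a typical member reached 0.34 on the log2 scale to either side of the estimate, and a missed threshold does not show that layers were alike.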
